A study of Homo sapiens with 12 samples.

Results

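The 10 genes described here code for subunits of the transcription factor NF-kappaB, inhibitors that it induces, and some of its best known targets. They were chosen by name: the subunits NFKB1, NFKB2, RELA and RELB, the inhibitors NFKBIA and TNFAIP3, and the targets BIRC3, ICAM1, TNFAIP2 and TRAF1. All 10 were found among the 11529 genes of the table, by symbol. RNA was sequenced from 2 established lines of human triple-negative breast cancer, MDA-MB-231 and MDA-MB-468, with 3 wild type control and 3 SMARCA4 KO samples of each, 12 samples in all. KO cells had received a lentiviral CRISPR/Cas9 vector with a guide RNA against SMARCA4, the ATPase of the SWI/SNF chromatin remodeling complex, and were selected with puromycin. For the study's protein blots, control cells carried a nontargeting CRISPR/Cas9 vector. The labels call the sequenced controls wild type and do not say whether these carried it too, and they give no other treatment. Nothing in the labels says that replicates came from separate cultures, so the p-values measure the spread between these samples, which may be technical. Values are log2(FPKM + 1), where FPKM is the fragment number of a gene, scaled to transcript length and to the size of the library, and a log2 FC is a difference of mean log2 values. A gene passed the test, or was a DEG, at a Benjamini-Hochberg adjusted p under 0.05 over all 11529 genes and an absolute log2 FC over 0.5 (limma).

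NF-kappaB is a family of dimers of Rel proteins. In resting cells, inhibitors of the IkappaB type hold the dimers in the cytoplasm, until receptors for TNF, interleukin-1 or lymphotoxin activate kinases that mark the inhibitors for destruction. In the canonical branch RELA and the p50 product of NFKB1 enter the nucleus. In the noncanonical branch the kinase MAP3K14, also called NIK, leads to processing of NFKB2 to p52, which pairs with RELB. Several of the targets feed back on the pathway, among them NFKBIA (IkappaB-alpha), TNFAIP3 (the ubiquitin-editing enzyme A20), NFKB1, NFKB2 and RELB themselves. Cells of the mesenchymal type of triple-negative breast cancer, to which MDA-MB-231 belongs, are known for constitutive NF-kappaB activity.

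NF-kappaB binds short sites known as kappaB sites, and the stretches upstream of BIRC3 and ICAM1 are shown because these were the 2 members that rose in MDA-MB-468 KO cells. Promoter windows came from RefSeq (GRCh38.p14), 250 bases before to 50 after a transcription start, and each was matched to 1 place in GRCh37, whose coordinates are given. Of the 10 members, 9 had windows, 15 in all, and the other was RELB. Capitals mark matches, on either strand, to the 10-base kappaB consensus or to the 9-base motif GGAANNTCC, where N is any base. The 2 motifs can overlap in the same bases.
BIRC3, chr11:102187965-102188164, plus strand: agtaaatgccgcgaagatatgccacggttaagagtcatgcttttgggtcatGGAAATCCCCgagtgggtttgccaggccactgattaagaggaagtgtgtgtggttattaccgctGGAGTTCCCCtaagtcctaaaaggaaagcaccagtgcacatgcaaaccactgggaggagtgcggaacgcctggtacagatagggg
ICAM1, chr19:10381546-10381745, plus strand: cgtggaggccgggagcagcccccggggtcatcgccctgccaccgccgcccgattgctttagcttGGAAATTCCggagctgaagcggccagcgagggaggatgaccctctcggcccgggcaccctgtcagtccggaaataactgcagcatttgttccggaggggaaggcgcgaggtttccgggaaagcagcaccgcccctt

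The 4 members shown next are feedback genes of the pathway, as 30 bases around a match, for comparison of the letters with the targets above.
TNFAIP3, chr6:138188325-138188354, plus strand: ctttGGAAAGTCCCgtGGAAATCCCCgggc
NFKBIA, chr14:35874011-35874040, minus strand: gcttGGAAATTCCCcgagcctgaccccgcc
NFKB1, chr4:103422463-103422492, plus strand: cagtGGGAATTTCCagccaggaagtgagag
NFKB2, chr10:104154224-104154253, plus strand: tcatGGGAATTCCCCcctccggggggccga
The kappaB consensus was matched in 6 of the 15 windows, against 11.3% of all 35116 windows, and the members were BIRC3, TNFAIP3, NFKBIA, NFKB1 and NFKB2. GGAANNTCC was also matched in 6 of 15 windows, those of ICAM1, TRAF1, TNFAIP3, NFKBIA, NFKB1 and NFKB2, against 4.56% of all windows. In BIRC3 the matches lay at bases -199 and -135 from the start and in ICAM1 at -186. No match to either motif was found in the windows of TNFAIP2 and RELA, which says only that these letters are not in those windows. A match is a description of the letters, not evidence of a bound site.

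SMARCA4 itself was lower in all KO samples. Its mean FPKM in KO cells was 44.3% of control in MDA-MB-468 (log2 FC = -1.16, adjusted p = 0.0137, limma) and 32.7% in MDA-MB-231 (log2 FC = -1.57, adjusted p = 0.00143). Without control replicate 2 or 3 or KO replicate 2 of MDA-MB-468 the adjusted p there rose above 0.05, to at most 0.0748, with log2 FC of -1.22 to -1.10 over all single omissions. Genes that mark the lines went with the labels, with the exception of CD44: the 6 epithelial and basal genes listed for MDA-MB-468 summed to 1343 to 1749 FPKM there and 118 to 137 in MDA-MB-231, and the 5 mesenchymal genes in the table for MDA-MB-231 summed to 1983 to 2555 FPKM there and 786 to 980 in MDA-MB-468. CD44 went the other way, with a mean of 890 FPKM in controls of MDA-MB-468 against 482 FPKM in those of the other line, and made up most of the MDA-MB-468 sum. Of markers of other cells, 0 of 6 fibroblast, 0 of 5 endothelial and 2 of 6 leukocyte genes (CD14 and CD68) were in the table. These 2 summed to 47.2 to 54.8 FPKM in MDA-MB-468 control, 23.1 to 65.3 in MDA-MB-468 KO, 93.5 to 103 in MDA-MB-231 control and 105 to 114 in MDA-MB-231 KO samples. Within MDA-MB-231 some markers moved with KO: CD14 (log2 FC = 1.18, adjusted p = 0.0294) and CDH1 (0.54, adjusted p = 0.0442) passed the test, while SNAI2 (-0.45, adjusted p = 0.0152) and VIM (-0.39, adjusted p = 0.0309, limma) stayed under the fold change threshold. Both that passed were low in this line: CD14 went from 1.16 to 3.98 FPKM and CDH1 from 0.267 to 0.84 FPKM. The part of these 4 markers in the member changes of that line was not tested. Within MDA-MB-468 no marker passed. CAV1, listed for the other line, had the largest estimate there, with a log2 FC of 1.44 (adjusted p = 0.0620, limma). It went from 19.3 to 55.9 FPKM, and all KO samples lay above the controls. Read depth is unknown, and in bulk RNA fewer expressing cells and less RNA per cell cannot be told apart. One library stood apart for the genes described here: MDA-MB-231 control replicate 1 was the highest of its 3 controls for 10 of 10 members, against 29.7% of all genes, so values with and without it are given.

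Before KO, most of the 10 genes were less expressed in MDA-MB-468, the more epithelial line, than in mesenchymal MDA-MB-231 cells. Of the 10 members, 8 were lower in MDA-MB-468 controls and 0 higher, where 31.4% of all genes were lower and 32.8% higher, so 64.2% of genes passed this test in either direction. TRAF1, an adaptor of TNF receptors, and BIRC3, the ubiquitin ligase cIAP2 of the same receptor complexes, had the largest differences, with log2 FC of -3.52 and -3.10. They were followed by NFKBIA (-2.06), TNFAIP3 (-1.46), NFKB2 (-1.41), ICAM1 (-1.23), RELB (-1.07) and NFKB1 (-0.66). The 2 exceptions were RELA, with a log2 FC of -0.05 (95% interval -0.20 to 0.09, adjusted p = 0.436), and TNFAIP2, with a log2 FC of 0.10 (95% interval -0.09 to 0.28, adjusted p = 0.295). RELA, the main transactivating subunit, was at 58.3 ± 1.40 FPKM in controls of MDA-MB-468 and 60.7 ± 3.64 FPKM in those of MDA-MB-231 (SD, n = 3). Adjusted p of the 8 lay between 4.47e-11 for TRAF1 and 4.53e-05 for NFKB1 (limma, 1 fit of all 12 samples). Of 51 other signalling genes of the pathway, described further on, 14 were higher in MDA-MB-468 controls and 17 lower, with a median log2 FC of 0.02. Without MDA-MB-231 control replicate 1 the same 8 members passed, the log2 FC of ICAM1 being -1.03 and that of NFKB1 -0.53. Genes with an average FPKM under 1 had been removed before deposit. TRAF1, at 0.307 FPKM in MDA-MB-468 controls, could stay only through MDA-MB-231, so the filter fixed its direction.

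**Figure D1:**
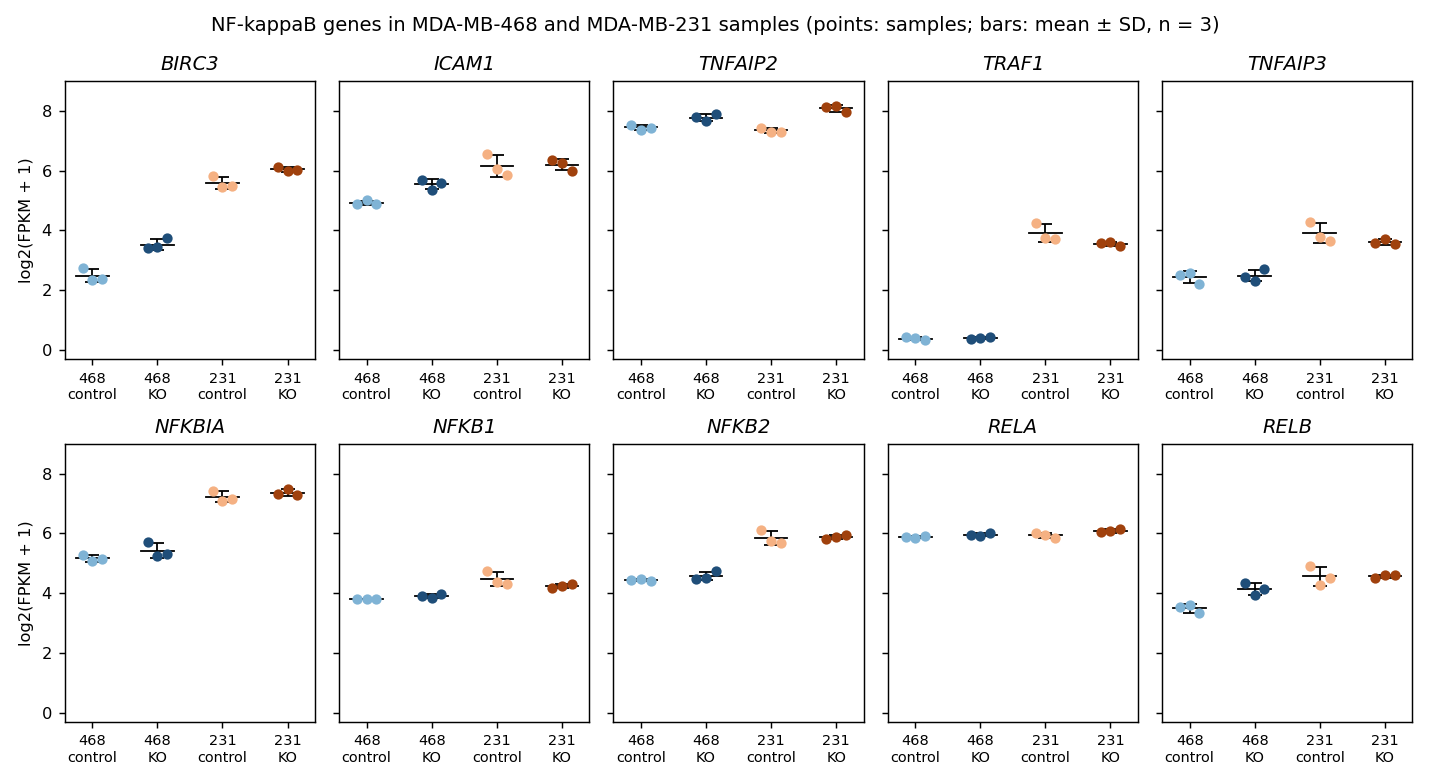
Each panel plots log2(FPKM + 1) of 1 gene in the 4 groups of samples, with points for samples and bars for the mean ± SD (n = 3). BIRC3 and ICAM1 KO samples of MDA-MB-468 sit above their controls, TNFAIP2 KO samples of MDA-MB-231 sit above theirs at 7.95 to 8.16, and TRAF1 is near 0 in MDA-MB-468.

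FPKM is scaled to transcript length, so the members can be ranked within a line. In MDA-MB-468 controls the order of mean FPKM was TNFAIP2 (174), RELA (58.3), NFKBIA (34.8), ICAM1 (29.5), NFKB2 (20.6), NFKB1 (12.98), RELB (10.3), BIRC3 (4.64), TNFAIP3 (4.48) and TRAF1 (0.307). Only BIRC3 and TNFAIP3 among these neighbors had overlapping samples. The MDA-MB-231 order was TNFAIP2 (162), NFKBIA (149), ICAM1 (71.9), RELA (60.7), NFKB2 (57.2), BIRC3 (47.4), RELB (23.0), NFKB1 (21.4), TNFAIP3 (14.3) and TRAF1 (14.2). Here most neighbors overlapped, and the exceptions were NFKBIA with ICAM1, BIRC3 with RELB, and NFKB1 with TNFAIP3.

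The first question was which of these genes changed after SMARCA4 KO in MDA-MB-468 cells. In the fit without pairing of samples BIRC3 and ICAM1 rose, and no member fell. Over all genes 2.14% were DEGs, 1.33% higher and 0.815% lower, but the rises of BIRC3 and ICAM1 were known when the genes were chosen, so nothing is read from 2 of 10. Of the other 8 members 0 passed, and 2 of them, TNFAIP2 and RELB, had an unadjusted p under 0.05 (limma). Over all genes 25.1% did, so nothing is read from these 2 of 8. The estimates of these 8 were all positive, from 0.00 for TRAF1 to 0.64 for RELB. Over all genes 6175 of 11529 were positive, with a median log2 FC of 0.02. The KO samples of TNFAIP2, RELB, NFKB1 and NFKB2 all lay above the controls, and those of TRAF1, TNFAIP3, NFKBIA and RELA overlapped them. Of all genes 17.5% lay above and 13.5% below.

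Among the targets, BIRC3 (chromosome 11, 102188215 to 102210134, plus strand), which protects cells from TNF-induced death, was the most changed. Its log2 values were 2.73, 2.36 and 2.36 in the controls and 3.42, 3.43 and 3.73 in the KO samples. Every KO sample exceeded every control, although control replicate 1 was closer to them than the others. The log2 FC was 1.04 ± 0.14 (SE), and mean FPKM went from 4.64 to 10.6, or 228% of control (adjusted p = 0.0291, limma). ICAM1 (chromosome 19, 10381769 to 10397291, plus strand), an adhesion receptor for leukocyte integrins, had values of 4.89, 5.01 and 4.89 in controls and 5.68, 5.37 and 5.59 in KO samples. Again the groups were separate, and the KO samples were the more spread. Its log2 FC was 0.62 ± 0.09 (SE), with 156% of control FPKM (adjusted p = 0.0354, limma).

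Both calls were close to the threshold. Samples were not paired in the fit behind these calls, although same-numbered samples of this line deviated together. With a replicate block for these numbers the adjusted p was 0.0612 for BIRC3 and 0.0741 for ICAM1, and 0 members passed (limma). Leaving out any of the 3 controls, or KO replicate 2 or 3, also ended both calls. With 1 sample left out, BIRC3 had a log2 FC of 0.94 to 1.17 and an adjusted p that ran from 0.0370 without KO replicate 1, where the call held, to 0.114 without control replicate 2. ICAM1 had a log2 FC of 0.55 to 0.71 and an adjusted p from 0.0426 without KO replicate 1 to 0.119 without KO replicate 3. In all 6 of these fits both genes were higher in KO samples.

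The other 2 targets did not pass in this line. TNFAIP2 (chromosome 14, 103587813 to 103603776, plus strand), a TNF-induced protein tied to membrane protrusions, had 7.54, 7.37 and 7.43 in controls and 7.79, 7.66 and 7.89 in KO samples. These did not overlap, with a log2 FC of 0.33 (95% interval 0.13 to 0.53, adjusted p = 0.0790, limma). TRAF1 (chromosome 9, 123664671 to 123691451, minus strand) was barely expressed, at 0.44, 0.39 and 0.32 in controls and 0.36, 0.39 and 0.42 in KO samples. The groups overlapped fully, and the interval of its log2 FC was -0.12 to 0.13.

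Of the subunits, RELB (chromosome 19, 45504719 to 45541450, plus strand), the partner of p52 in the noncanonical branch, stood nearest to the threshold. Its values were 3.53, 3.62 and 3.33 in controls and 4.32, 3.93 and 4.15 in KO samples. All KO samples were higher, by about as much as for ICAM1. The log2 FC was 0.64 (95% interval 0.33 to 0.95) and KO cells had 162% of control FPKM, with an adjusted p of 0.0566 (limma). RELB passed when only genes with a mean log2 value over 2 were tested (adjusted p = 0.0237) and in 1 fit of all 12 samples (adjusted p = 0.0170, limma).

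The 3 other subunit genes had small estimates. NFKB1 (chromosome 4, 103422487 to 103538459, plus strand), the precursor of p50, had 3.82, 3.79 and 3.81 in controls and 3.90, 3.83 and 3.96 in KO samples. NFKB2 (chromosome 10, 104153867 to 104162281, plus strand), the precursor of p52, had 4.42, 4.47 and 4.41 against 4.49, 4.49 and 4.74. In both the KO samples lay above the controls by narrow margins, and the intervals of the log2 FC were -0.03 to 0.21 for NFKB1 and -0.06 to 0.34 for NFKB2. RELA (chromosome 11, 65421070 to 65430561, minus strand) had 5.89, 5.86 and 5.93 in controls and 5.95, 5.90 and 6.01 in KO samples. These overlapped, with an interval of -0.06 to 0.18, so that any change of RELA over about 0.18 lies outside its 95% interval.

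The inhibitors did not pass either. NFKBIA (chromosome 14, 35870285 to 35873955, minus strand), the IkappaB that returns the canonical dimer to the cytoplasm, had 5.27, 5.07 and 5.14 in controls and 5.70, 5.25 and 5.32 in KO samples. KO replicate 2 fell just below the highest control, and the log2 FC was 0.26 (95% interval -0.07 to 0.59, adjusted p = 0.280, limma). TNFAIP3 (chromosome 6, 138188351 to 138204451, plus strand) had 2.53, 2.59 and 2.22 in controls against 2.45, 2.32 and 2.71 in KO samples. Its groups overlapped and the interval was -0.30 to 0.40.

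**Figure D2:**
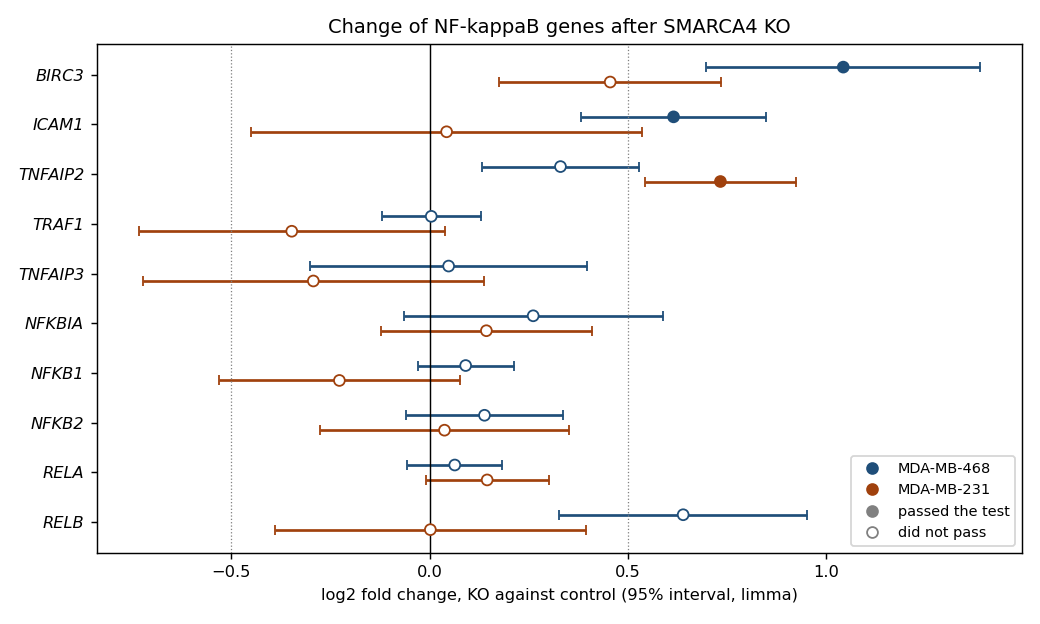
Log2 FC of KO against control (x axis) for the 10 genes, blue for MDA-MB-468 and brown for MDA-MB-231, with 95% intervals from limma, filled points for genes that passed the test and dotted lines at the fold change threshold of 0.5. BIRC3 and ICAM1 are filled in blue and TNFAIP2 in brown, and the intervals of RELB and ICAM1 in MDA-MB-231 are centered near 0.

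In MDA-MB-231 cells a different member passed. TNFAIP2 rose and no member fell, which is 1 of 10, where 3.7% of all genes were DEGs, 2.39% higher and 1.31% lower. The KO samples lay above all controls in 3 members (BIRC3, TNFAIP2 and RELA), where 16.6% of all genes did, and below them in 1 (TRAF1), where 19.4% did. The median log2 FC of the members was 0.04, against -0.01 over all genes.

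TNFAIP2 values were 7.44, 7.30 and 7.31 in controls and 8.14, 8.16 and 7.95 in KO samples. The gap between the groups was wider than either group's range. Its log2 FC was 0.73 ± 0.08 (SE) and KO cells had 167% of control FPKM (adjusted p = 0.00982, limma). Without KO replicate 2 the log2 FC was 0.69 and the call was lost (adjusted p = 0.0543, limma), while without control replicate 1 it held at 0.78 (adjusted p = 0.0267).

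BIRC3 had 5.83, 5.46 and 5.47 in controls and 6.13, 5.98 and 6.02 in KO samples. Control replicate 1 lay between the other controls and the KO samples. The log2 FC was 0.46 (95% interval 0.18 to 0.74), or 137% of control FPKM, and did not pass (adjusted p = 0.0576, limma). Without that control it was 0.58 and passed (adjusted p = 0.0285, limma).

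ICAM1 and RELB, which had the next largest estimates after BIRC3 in MDA-MB-468, were centered near 0 here. ICAM1 values were 6.56, 6.04 and 5.87 in controls and 6.35, 6.27 and 5.98 in KO samples, and those of RELB were 4.90, 4.28 and 4.50 against 4.50, 4.60 and 4.59. For both, control replicate 1 exceeded every KO sample. The log2 FC was 0.04 for ICAM1 (95% interval -0.45 to 0.54) and 0.00 for RELB (-0.39 to 0.39), intervals that leave room for changes of either sign. Without control replicate 1 the values were 0.24 for ICAM1 (adjusted p = 0.307) and 0.17 for RELB (adjusted p = 0.270, limma).

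TRAF1 and TNFAIP3 had negative estimates. TRAF1 was 4.26, 3.76 and 3.70 in controls and 3.60, 3.60 and 3.48 in KO samples. The groups did not overlap, the first control lay furthest from the KO samples, and the log2 FC of -0.35 (95% interval -0.73 to 0.04) was -0.17 without it. TNFAIP3 was 4.30, 3.79 and 3.65 in controls and 3.58, 3.72 and 3.56 in KO samples, with a log2 FC of -0.29 that was -0.10 without control replicate 1. Neither gene passed with or without that sample.

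The remaining members did not pass. NFKBIA had 7.43, 7.10 and 7.15 in controls against 7.32, 7.49 and 7.29 in KO samples (log2 FC = 0.14, 95% interval -0.12 to 0.41). NFKB1 had 4.74, 4.36 and 4.31 against 4.17, 4.24 and 4.31 (-0.23, interval -0.53 to 0.08), and NFKB2 had 6.12, 5.76 and 5.67 against 5.82, 5.88 and 5.96 (0.04, interval -0.28 to 0.35). RELA had 6.03, 5.95 and 5.86 against 6.03, 6.09 and 6.15 (0.15, interval -0.01 to 0.30). In RELA the lowest KO sample and the highest control were almost equal.

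MDA-MB-231 control replicate 1 stood higher for the members than for other genes. It exceeded the mean of the other 2 controls by a median of 0.41 on the log2 scale over the members, against -0.02 over all genes. The excess was 0.60 for ICAM1, 0.58 for TNFAIP3, 0.53 for TRAF1, 0.51 for RELB, 0.41 for NFKB2, 0.40 for NFKB1, 0.36 for BIRC3, 0.31 for NFKBIA, 0.14 for TNFAIP2 and 0.12 for RELA. It was also the highest control for 28 of 41 other target genes (68.3%) and for 20 of 51 other signalling genes (39.2%). The median SD of the members was larger among MDA-MB-231 controls, at 0.24, than for all 10187 genes with a mean log2 value over 2, at 0.10. In the other groups the medians were 0.08 against 0.09 (MDA-MB-231 KO), 0.08 against 0.09 (MDA-MB-468 control) and 0.15 against 0.10 (MDA-MB-468 KO). Why this sample differed was not tested.

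**Figure D3:**
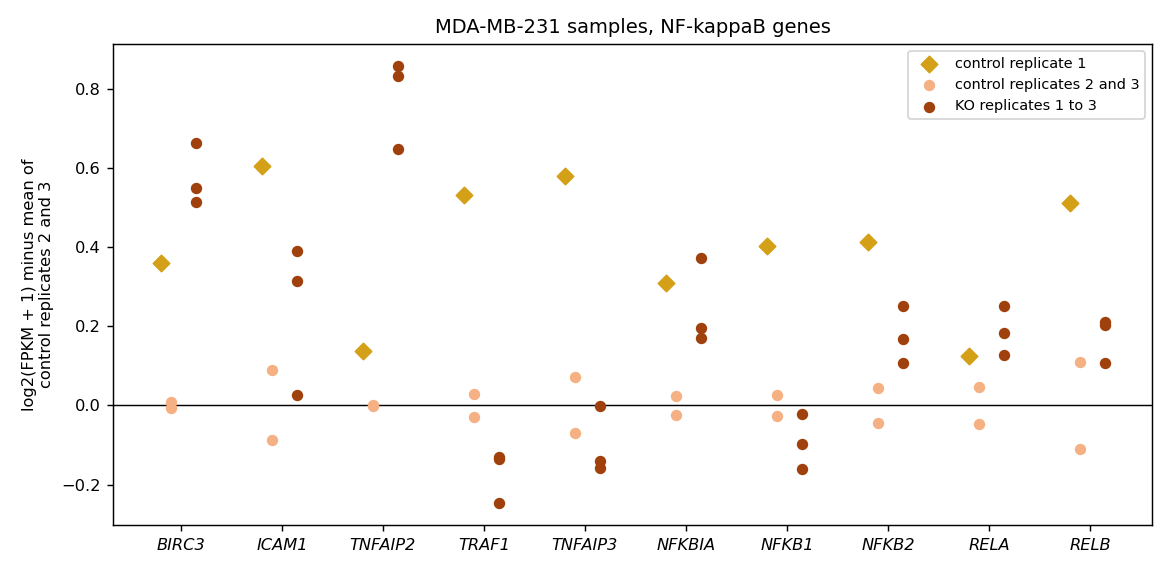
Log2(FPKM + 1) of each MDA-MB-231 sample minus the mean of control replicates 2 and 3 (y axis), for the 10 genes (x axis), with a diamond for control replicate 1, pale points for control replicates 2 and 3, and dark points for the 3 KO samples. Every diamond lies above 0, from 0.12 for RELA to 0.60 for ICAM1, and for BIRC3, TNFAIP2 and RELA all KO points lie above the diamond.

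Whether a change differed between the lines was tested directly, as the change in MDA-MB-468 minus that in MDA-MB-231. Of the 10 members only TNFAIP2 passed, with a difference of -0.40 (95% interval -0.66 to -0.14, adjusted p = 0.0431, limma), where 14.7% of all genes passed, 7.91% with the larger change in MDA-MB-468 and 6.83% with the smaller. TNFAIP2 thus had the larger change in MDA-MB-231. The next members by adjusted p had the larger change in MDA-MB-468 and did not pass: BIRC3 with 0.59 (95% interval 0.19 to 0.99, adjusted p = 0.0525), RELB with 0.64 (0.19 to 1.09, adjusted p = 0.0596) and ICAM1 with 0.57 (0.08 to 1.06, adjusted p = 0.106). Without MDA-MB-231 control replicate 1 these were 0.47 for BIRC3, 0.47 for RELB and 0.37 for ICAM1, and TNFAIP2 had -0.45 (adjusted p = 0.0458, limma). The BIRC3 difference passed with a pseudocount of 0.1 (adjusted p = 0.0472), where that of TNFAIP2 did not (adjusted p = 0.0532, limma). The other 6 members had differences from -0.08 for RELA to 0.35 for TRAF1, with adjusted p from 0.143 upward. Leaving out 1 sample at a time gave TNFAIP2 differences of -0.47 to -0.34 with adjusted p of 0.0290 to 0.104, and 9 of the 12 samples ended the call when left out. In some of these fits BIRC3 or RELB passed in its place, with the larger change in MDA-MB-468.

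To see which genes behaved most like BIRC3 and ICAM1 over the 12 samples, the control mean of its own line was taken from each value, and the mean absolute difference between genes was computed. TCF7L1 (0.14), CERS1 (0.15) and GPSM1 (0.15) were the nearest to BIRC3, and IL27RA (0.10), RELB (0.11) and COL4A1 (0.12) the nearest to ICAM1, on the log2 scale. RELB, a member by name and not by this pattern, was the second of all genes in nearness to ICAM1. Among the other members NFKBIA (0.19) and NFKB2 (0.20) were next nearest to ICAM1 and BIRC3 was at 0.29. The samples, and with them the high MDA-MB-231 control, are shared by all these genes.

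The rest of the pathway was read from a list of 65 signalling genes, of which 51 were in the table. In MDA-MB-468 KO cells 0 of 51 passed the test (limma), where 2.14% of all genes did, with a median log2 FC of 0.02, and 17 of 51 had an unadjusted p under 0.05, where 25.1% of all genes did. The kinase IKBKE (log2 FC = 0.44, adjusted p = 0.0450) and the A20 partner TNIP2 (0.27, adjusted p = 0.0464, limma) were under the fold change threshold; both are named after their values were seen. In MDA-MB-231, 2 of 51 rose, TNFRSF1B and MAP3K14, and 0 fell, with a median of 0.03. That is 3.92% of the list, about the 3.7% of all genes, so the share is no result about the pathway. TNFRSF1B, the second TNF receptor (TNFR2), had a log2 FC of 1.12 (adjusted p = 0.0105) and went from 4.18 ± 0.27 to 10.3 ± 1.81 FPKM (SD, n = 3). MAP3K14, the kinase of the noncanonical branch, had a log2 FC of 0.59 (adjusted p = 0.0275, limma) and went from 9.98 ± 1.102 to 15.5 ± 1.57 FPKM. In MDA-MB-468 TNFRSF1B was at 0.0067 FPKM in controls and 0.0267 in KO samples, and MAP3K14 had a log2 FC of 0.16 (adjusted p = 0.460).

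Changes of 7 signalling genes differed between the lines, 13.7% of the list where 14.7% of all genes did. The largest differences were those of 4 receptors, TNFRSF1B (-1.09), IL1R1 (-0.97), TNFRSF1A (-0.55) and CD40 (-0.48), with adjusted p of 0.000735 to 0.00890. The other 3 had the opposite sign and are named to complete the 7: the kinases IKBKE (0.47) and RIPK2 (0.42) and the receptor TNFRSF12A (0.32, adjusted p = 0.0465, limma). In MDA-MB-231 the KO samples of the 4 receptors named first lay above the controls, where 16.6% of all genes did. The log2 FC there was 0.59 for IL1R1 (adjusted p = 0.0508), 0.33 for TNFRSF1A (adjusted p = 0.0251) and 0.48 for CD40 (adjusted p = 0.0125, limma). The last 2 were under the fold change threshold. In MDA-MB-468 IL1R1 had -0.38 and TNFRSF1A -0.22, neither of which passed, and CD40 was listed at 0 in all 6 samples. TNFRSF1B, at 0.0067 FPKM in MDA-MB-468 controls, and CD40 could stay in the table only through MDA-MB-231. Their differences thus rest on the MDA-MB-231 change, and nothing about the other line is read from them.

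Of 54 other target genes, 41 were in the table, and 6 genes stand in both lists. In MDA-MB-468 KO cells 4 rose and 1 fell, or 12.2% of the list, where 2.14% of all genes were DEGs (1.33% higher and 0.815% lower), with a median log2 FC of 0.13. The list was chosen with earlier results of these data known, so nothing is read from this share. TNFSF9, the 4-1BB ligand, had a log2 FC of 1.68, the matrix protein TNC 1.11, the urokinase gene PLAU 0.55 and CD83 0.53, while the chemokine gene CXCL2 had -0.55, with adjusted p of 0.0145 to 0.0435 (limma). With the replicate block PLAU (adjusted p = 0.0625) and CXCL2 (0.0505) no longer passed, and TNFSF9, TNC and CD83 still did. Leaving out any of the 3 controls, or KO replicate 2 or 3, left 0 of the list. Levels of these genes in MDA-MB-468 were low, between 0.897 FPKM (TNC) and 5.69 FPKM (TNFSF9) in controls.

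Of the same 41 targets, 5 rose and 2 fell in MDA-MB-231 KO cells, or 17.1%, where 3.7% of all genes were DEGs (2.39% higher and 1.31% lower), with a median log2 FC of 0.04. Nothing is read from this share either, because the list and its groups were chosen with earlier results known. LCN2, a secreted iron carrier, had a log2 FC of 2.17, complement C3 1.44, the monocyte chemokine gene CCL2 1.0, TNFSF9 0.71 and CSF1 0.66, and TNC fell by 1.04 and the cytokine gene CSF2 by 0.75 on the log2 scale (adjusted p of 0.00817 to 0.0418, limma). CSF1 is named outside the naming rule, after its values were seen, because it completes the 5. By group, estimates were positive in 11 of 11 immune genes, 5 of 11 chemokines and cytokines, 1 of 4 adhesion or matrix genes, 2 of 6 survival genes and 5 of 9 feedback or transcription genes, where 5486 of 11529 genes were. Of the immune genes 3 passed, and TLR2 (0.01), B2M (0.02) and PSMB9 (0.04) were near 0. Without control replicate 1 the number that passed was 11, and without any other single sample it was 1 to 4. For the same groups, in the order given, positive estimates in MDA-MB-468 numbered 7 of 11, 6 of 11, 3 of 4, 3 of 6 and 7 of 9. Over all genes they numbered 6175 of 11529 there.

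TNFSF9 was the only gene of the target list that passed the test as higher in both lines. KO samples of SAA1, SAA2, C3 and IRF1 also lay above the controls in both, and those of CYLD below. Of all genes 17.5% lay above and 13.5% below in MDA-MB-468, and 16.6% and 19.4% in MDA-MB-231. The share in both lines at once was not computed, so nothing is read from the number of such genes. With MDA-MB-468 given first, log2 FC were 0.82 and 1.07 for SAA1, 0.66 and 1.43 for SAA2, and 0.66 and 1.44 for C3. They were 0.31 and 0.24 for IRF1, and -0.24 and -0.29 for CYLD. Of these genes only C3 passed, and only in MDA-MB-231. TNC rose in MDA-MB-468 cells but fell in the other line. The tested differences between the lines were 0.97 for TNFSF9 (adjusted p = 0.0163) and 2.16 for TNC (adjusted p = 1.12e-05, limma). LCN2 (-2.21), CCL2 (-1.74) and IL8 (1.34), the gene of the neutrophil chemokine CXCL8, also differed. In control cells all 11 chemokine and cytokine genes of the list were lower in MDA-MB-468 than in the other line, with a median log2 FC of -4.15, where 31.4% of all genes were lower. Genes with an average FPKM under 1 had been removed. Some of the 11, such as IL6 at 0.343 FPKM and CSF3 at 0.01 in MDA-MB-468 controls, could thus stay only through MDA-MB-231. The filter fixed the direction of such genes, so nothing is read from this count. Over the whole target list 25 of 41 were lower and 7 higher, and in the feedback or transcription group 3 were lower and 3 higher. The 25 include those 11 and others kept only through MDA-MB-231, such as PTX3 at 0.04 FPKM in MDA-MB-468 controls. Nothing is read from the 25 and 7 either.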

How the data were processed

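RNA-seq libraries (TruSeq Stranded mRNA) of 12 samples were used. The authors used Trimmomatic for trimming, STAR for alignment to hg19 and RSEM for FPKM, removed genes with an average FPKM or SD under 1, and deposited log2(FPKM + 1) values. In the values, the smallest mean FPKM was 1.07 and the smallest SD 1.00. Depth is unknown, so no interval for counting error was computed. Whether counting used strand is not given in the sources used here; BIRC3, ICAM1, TNFAIP2, TNFAIP3 and RELA share exon bases with genes on the other strand, whose reads could then not be told apart. The 18 rows with a date in place of a symbol stayed in the tests.

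Separate fits were made for each line (limma 3.58.1, R 4.3.3, lmFit and eBayes without trend), 3 KO against 3 control samples, on all 11529 genes with Benjamini-Hochberg adjustment; differences between lines and between controls came from 1 fit of all 12 samples. The fit was tested on simulated data. Members and lists were chosen with earlier results of these data known. Named genes were SMARCA4, the members, up to 6 passing genes of each list with the largest change in each line, up to 4 with the largest difference between lines, and the 3 nearest to BIRC3 and ICAM1.

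Replicate numbers come from the titles. In MDA-MB-468, deviations from the group means of same-numbered control and KO samples correlated at 0.254, 0.161 and 0.119 across genes. Control replicate 3 correlated more with KO replicate 2, at 0.131, than with its own number. The main fits did not pair samples, and the replicate block was an alternative. In MDA-MB-231 the values were -0.0543, 0.0741 and -0.115, so the numbers were not read as pairs there. The alternatives were a pseudocount of 0.1, only genes with a mean log2 value over 2, quantile normalization, a common 75th percentile, an intensity trend, the replicate block, a block by the p number of the sample descriptions, 1 fit of all samples, a log2 FC over 1 (for differences between lines, over 0.5), and leaving out each sample. Loci follow GENCODE mapped to GRCh37. Figures used Python 3.11.15 and matplotlib 3.10.9.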

Additional observations from a re-analysis of the deposited data

Results flagged for a closer look

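Differences between the lines in the change after KO were tested with the interaction contrast of limma, and those with an adjusted p under 0.05 among the genes named are given as the change in MDA-MB-468 minus that in MDA-MB-231. The only member was TNFAIP2, at -0.40 (adjusted p = 0.0431). Among receptors the values were -1.09 for TNFRSF1B, -0.97 for IL1R1, -0.55 for TNFRSF1A and -0.48 for CD40, which is listed at 0 in MDA-MB-468, and 0.32 for TNFRSF12A. The kinases IKBKE and RIPK2 had 0.47 and 0.42, and TCF7L1 and CERS1, nearest to BIRC3, had 0.51 and 0.48. TCF7L1 and CERS1 were picked for values near those of BIRC3 in the same samples, so their differences are no separate test. Of the markers, CD14 had -1.75, CAV1 1.47 (adjusted p = 0.0121), VIM 0.81, CDH1 -0.76 and SNAI2 0.45. Among targets they were -2.21 for LCN2, 2.16 for TNC, -1.74 for CCL2, 1.34 for IL8, 0.97 for TNFSF9, 0.89 for CSF2, 0.74 for PLAU and -0.72 for CSF1. TNFRSF1B, CD40, SNAI2 and CSF2 were at or near 0 FPKM in MDA-MB-468 and could stay only through MDA-MB-231. Their differences thus rest mainly on that line. CSF2 had 0.0667 FPKM in MDA-MB-468 controls and 0.177 in KO samples. With a pseudocount of 0.1 its difference did not pass (adjusted p = 0.211, limma). CDH1 had 0.267 FPKM in MDA-MB-231 controls. SMARCA4 itself differed by 0.41 (adjusted p = 0.0270), its fall being larger in MDA-MB-231, and leaving out 1 sample ended this call in 6 of 12 cases (adjusted p up to 0.0668). Groups of 3 samples were not tested for outliers.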

How the results depend on the processing

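No single gene reversed its direction under an alternative where either value passed. Of the values that did not pass, 23 changed sign when 1 sample was left out, such as ICAM1 (-0.10 to 0.24), RELB (-0.14 to 0.17) and NFKB2 (-0.05 to 0.18) in MDA-MB-231 and TNFAIP3 (-0.07 to 0.14) in MDA-MB-468. Another 1, TRAF1 in MDA-MB-468, did so with quantile normalization (-0.12). In MDA-MB-468 the number of members that passed, 2 as reported, was 0 with the replicate block, 0 with the block by p number and 1 with a log2 FC over 1, and 0 to 2 when 1 sample was left out. In MDA-MB-231 the 1 member that passed became 0 with the replicate block, whose numbers do not pair samples there, 0 with a log2 FC over 1, and 0 to 2 when 1 sample was left out. For the difference between lines, 1 member as reported, the number was 2 with a mean log2 value over 2, 2 with an intensity trend, 0 with a difference over 0.5 and 0 to 1 without 1 sample. With a pseudocount of 0.1 the 1 member was BIRC3 in place of TNFAIP2, and the direction was the opposite. The direction was also the opposite, with BIRC3 or RELB as the 1 member, without MDA-MB-231 control replicate 2, MDA-MB-468 control replicate 1 or MDA-MB-468 KO replicate 1. The 8 members that differed between controls were 7 to 8 throughout. Of the signalling list in MDA-MB-468, where 0 passed, 1 passed with a mean over 2, 2 in 1 fit of all 12 samples and 0 to 1 without 1 sample. In MDA-MB-231, where 2 passed, the numbers were 4 with 75th percentile scaling, 0 with the block, 1 with a log2 FC over 1 and 0 to 2 without 1 sample. Of the target list, 5 in MDA-MB-468 became 3 with quantile normalization, 3 with the block, 0 with the block by p number, 2 with a log2 FC over 1 and 0 to 7 without 1 sample, and 7 in MDA-MB-231 became 11 with a mean over 2, 0 with the block, 11 in 1 fit of all samples, 4 with a log2 FC over 1 and 1 to 11 without 1 sample. A filter and a shared fit change the number of genes or samples behind each p, and a block leaves fewer degrees of freedom. The block by p number also joined a control and a KO sample of unlike p number. The cause of the other shifts was not tested. Over all genes, DEGs in MDA-MB-468 numbered 247, and 400 with a mean over 2, 537 in 1 fit of all samples, 53 with a log2 FC over 1, 241 with the block, 0 by p number and 0 to 474 without 1 sample. In MDA-MB-231 they numbered 426, and 0 with the block, 85 with a log2 FC over 1 and 99 to 311 without 1 sample. Of the genes whose change differed between lines, 912 of 1699 were higher in MDA-MB-468, and 671 of 1612 after 75th percentile scaling, which puts the majority on the other side. With 3 samples a group and unknown depth, changes of the least expressed genes, such as TRAF1 in MDA-MB-468, are the least certain.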
